A study of Mus musculus with 20 samples.

Results

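Gene expression in murine CD8+ T cells cultured for 24 hours with 1 nM of 21h10 was compared with that in cells cultured without cytokine, in the first of 2 experiments. 21h10 is a computationally designed protein that mimics the cytokine interleukin-21 (IL-21). The comparison was set by the sample labels alone and by no measured value. It holds 4 of the 20 libraries of the series, 2 of cells with 21h10 at 1 nM and 2 of unstimulated cells. All 10 libraries of experiment 1 entered one fit, the other groups being 21h10 at 100 pM and native murine IL-21 (mIL-21) at either dose (n = 2 each). The labels call these cytokines only h10 and WT, and they were read as 21h10 and mIL-21 from the study's methods. They give 24 hours for the cytokine groups only and no time in culture for the unstimulated cells. Whether these were harvested at the same time is not given there. Of experiment 2 only the contrast of 21h10 at 10 nM with cells without cytokine is given, side by side, from a fit that held all 10 of its libraries. Every group came from spleens of wild-type C57BL/6J mice aged 6 to 8 weeks. CD8+ T cells were taken by negative selection, activated for 48 hours on bound anti-CD3 (2 µg/mL) with soluble anti-CD28 (1 µg/mL) and rested overnight before the cytokine was added, and the unstimulated cells were activated in the same way. The labels call the libraries of a group duplicates and do not say whether these came from separate mice or cultures, so that p-values measure only the spread between these libraries, which may be technical.

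IL-21 is made mainly by helper T cells and binds a receptor built from the IL-21 receptor chain and the common gamma chain. The kinases JAK1 and JAK3 on these chains phosphorylate STAT3 and, to a lesser degree, other STATs, which then enter the nucleus and bind DNA at the palindrome TTCNNNGAA. SOCS proteins, which are induced by STATs, turn the signal down. In CD8+ T cells IL-21 is known to support the cytotoxic program, in which perforin opens a way for granzymes into the target cell.

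Between 36824740 and 94070730 reads fell on genes in each library of experiment 1, with 94070730 and 55272634 in the unstimulated libraries and 37530462 and 53873087 with 21h10 at 1 nM. Duplicates varied with a biological coefficient of variation of 4.32%. On the first principal component, with 70.2% of the variance, the unstimulated libraries lay at -107.2 and -108.3 and those with 21h10 at 1 nM at 44.6 and 43.0. The 7 CD8 T cell markers summed to counts per 1000000 reads (CPM, on TMM-scaled library sizes) of 2496 to 2504 in unstimulated cells and of 3235 to 3397 with 21h10. The 8 myeloid markers summed to 4.65 to 4.80 CPM without and 25.0 to 25.5 CPM with 21h10, a rise that lay in Cd68, which encodes a lysosomal protein (4.22 and 3.72 CPM against 25.4 and 24.8 CPM). The other 7 were at 3 reads or fewer in each library with 21h10, and S100a8 and S100a9 were at 0 in all 4 libraries. The 7 B cell markers summed to 11.89 to 12.01 CPM and 8.07 to 8.11 CPM, with Ms4a1 at 0 with 21h10. The 4 CD4 T cell markers summed to 22.9 to 23.4 CPM and 49.9 to 56.0 CPM, and of these only Zbtb7b, the gene of the factor ThPOK, passed the test (19.1 and 18.3 CPM against 52.2 and 46.3 CPM). The NK cell, dendritic cell and erythroid markers each summed to at most 4.22 CPM in any of the 4 libraries. The part of such cells in the results was not tested.

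Most genes differed between the groups. Of 13974 genes tested with edgeR's quasi-likelihood test on TMM-scaled counts, 5347 (38.3%) were higher and 5881 (42.1%) were lower with 21h10 at 1 nM at a Benjamini-Hochberg adjusted p under 0.05. The median log2 fold change over all of them was -0.04. With a change of at least 2-fold required as well, 2608 genes (18.7%) were higher and 2110 (15.1%) lower. Other cytokine groups differed from the same unstimulated libraries in about as many genes. With 21h10 at 100 pM 11396 genes (81.6%) passed and with mIL-21 at 1 nM 11200 (80.1%), beside 11228 (80.3%) here. The extent of change was therefore not particular to 21h10 at 1 nM. The libraries of the compared groups did not overlap for 89.6% of genes, nor for any of the 170 genes named here that passed the test. For the 12 largest rises and the 12 largest falls this was a condition of their choice. A gene past the threshold was therefore the rule rather than the exception here, and the counts of the 26 gene lists below are to be read against these shares. Another scaling moved the median of all genes to -0.12 (library sizes from mapped reads) or -0.16 (limma on RPKM), so that changes near 0 depend on the scaling, and the changes below are relative to TMM. Fewer cells of a type and less RNA per cell cannot be told apart in such bulk samples.

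**Figure D1:**
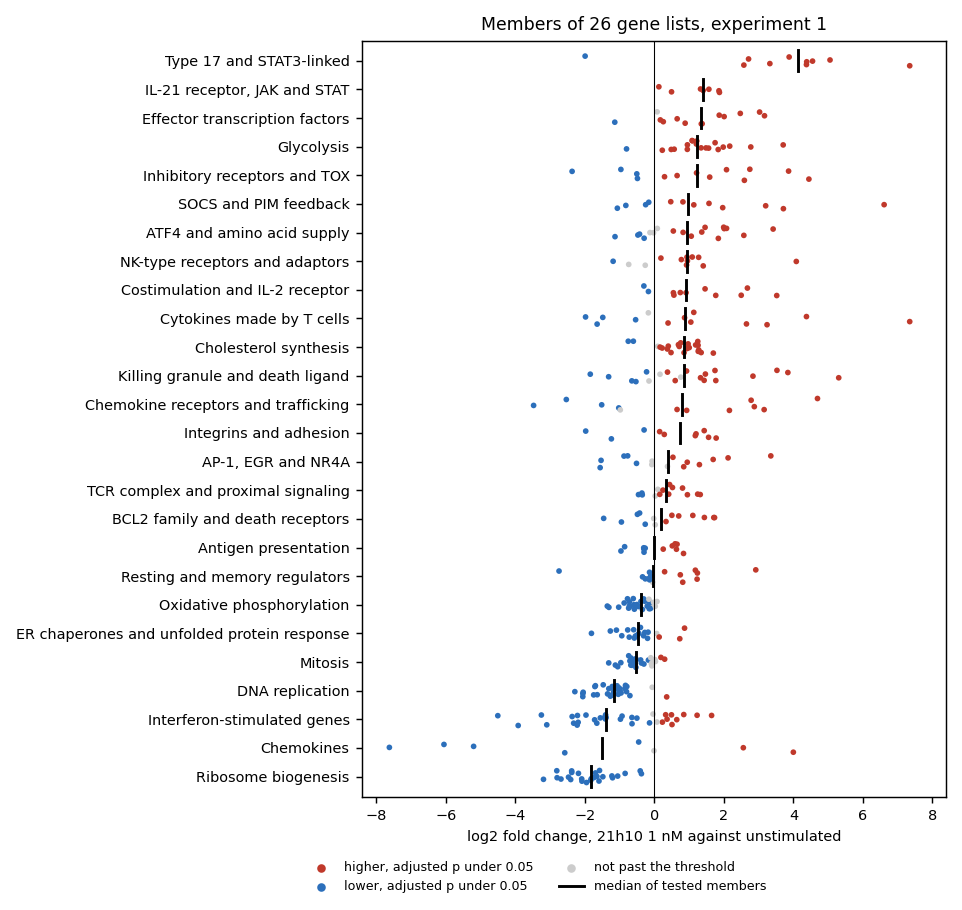
Log2 fold change of 21h10 1 nM against unstimulated (x axis) for each tested member of 26 gene lists (rows, ordered by their median). Points are genes, red where higher and blue where lower at an adjusted p under 0.05 and grey otherwise, and black bars are medians, which run from 4.13 for the type 17 and STAT3-linked list to -1.82 for ribosome biogenesis.

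The IL-21 signaling chain itself was more strongly expressed with 21h10 at 1 nM. All 7 listed members were higher, with a median log2 fold change of 1.404 and 5 members at least 2-fold higher. Stat3, the main transcription factor downstream of the receptor (chromosome 11, 100886806 to 100939594 on GRCm38), had 203.2 and 198 CPM in the unstimulated libraries and 719.7 and 749 CPM with 21h10. Both treated libraries were far above both untreated ones, by 1.87 ± 0.0460 (SE) on the log2 scale with an adjusted p of 2.01e-16. SE here and below is the size of the log2 fold change divided by the square root of the test's F statistic. Stat5a, which relays IL-2 and related cytokines as well, went from 109 and 112 CPM to 414 and 386 CPM, and Il21r, the private chain of the receptor, from 125 and 121 CPM to 336 and 317 CPM. The kinase gene Jak3 rose from 106 and 111 CPM to 336 and 306 CPM. The other members had log2 fold changes of 1.33 for Stat5b, 0.49 for Jak1 and 0.13 for Il2rg, the common gamma chain, whose call was lost with library sizes from mapped reads (0.05), with limma (0.05), with no filter on low counts (0.11) and without the second unstimulated or the first treated library (0.11 and 0.10). Stat5a and Stat5b share near-identical stretches over 11.3% and 9.44% of their transcripts, and 30.5% of the Il2rg transcript overlaps a predicted gene on the same strand (Gm20489), so part of these counts could belong to the partner. The strand setting of the counting is not given in the sources used here.

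Among the 12 SOCS and PIM feedback genes, 8 were higher and 4 lower, with a median log2 fold change of 0.98. Socs3, whose product binds the receptor complex and blocks JAK activity, changed most. Its unstimulated libraries had 6.57 and 6.67 CPM and its treated ones 686 and 606 CPM, which is 6.61 ± 0.0759 (SE) on the log2 scale with an adjusted p of 4.68e-20. The proto-oncogene kinase Pim1 rose from 41.6 and 42.9 CPM to 399 and 378 CPM, and Bcl3, an atypical IκB protein, from 13.5 and 14.99 CPM to 195 and 176 CPM. Cish, another STAT-induced inhibitor, rose from 36.4 and 37.7 CPM to 152 and 137.99 CPM. Not all SOCS genes moved this way. Socs2 fell from 36.2 and 34.9 CPM to 16.9 and 17.04 CPM and Socs6 from 18.1 and 19.0 CPM to 9.62 and 11.2 CPM, while Socs4 and Socs5 had log2 fold changes of -0.25 and -0.16. The calls of both were lost without the first treated library, which left 2 members lower, and that of Socs5 also without any other of the 4 libraries, with DESeq2, with no filter on low counts and with the compared groups alone. Near-identical copies cover 27.0% of the Socs2 transcript (Gm9847) and 33.6% of that of Socs6 (Gm9449), so the split of their reads is uncertain. Pim2 and Pim3 were higher, with log2 fold changes of 1.57 and 1.13, as were Socs1 (0.82) and Socs7 (0.47).

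The STAT palindrome stood in the promoter of a few of these genes. Promoters were taken from RefSeq (GRCm38.p6) as the 250 bases before to the 50 after the start, and 8.30% of all 32851 such windows hold TTCNNNGAA, which reads the same on both strands. Of the 8 SOCS and PIM genes with a window in the table, 2 had a match (Socs3 and Cish), as had 1 of the 10 matched genes among the 12 largest rises (Moxd1), 0 of the 9 matched among the 12 largest falls and 3 of 13 resting and memory regulators (Bach2, Bcl6 and Il7r). The share was 8.54% of genes at least 2-fold higher and 9.81% of those at least 2-fold lower, beside 8.37% of all tested genes with a window. The stretches around the matches of Socs3, Moxd1 and Bcl6, shown as examples of genes that rose, 1 from each of these groups, are given 5′ to 3′ along the gene, with the palindrome in capitals. Bcl6, which encodes a transcriptional repressor, has 2 annotated starts with a match.
Socs3, chr11:117969472-117969560, minus strand: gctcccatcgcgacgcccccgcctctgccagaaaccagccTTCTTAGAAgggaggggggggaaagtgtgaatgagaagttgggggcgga
Moxd1, chr10:24223327-24223415, plus strand: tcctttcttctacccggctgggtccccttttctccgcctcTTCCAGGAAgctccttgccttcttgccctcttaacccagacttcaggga
Bcl6, chr16:23988922-23989010, minus strand: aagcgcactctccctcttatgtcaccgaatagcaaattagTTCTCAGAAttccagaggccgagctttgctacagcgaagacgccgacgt
Bcl6, chr16:23981323-23981491, minus strand: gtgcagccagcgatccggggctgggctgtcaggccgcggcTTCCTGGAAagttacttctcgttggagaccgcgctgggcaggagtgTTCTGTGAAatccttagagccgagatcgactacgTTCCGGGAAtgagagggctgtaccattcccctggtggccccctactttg
The Socs3 match begins 154 bases and the Moxd1 match 150 bases before the start, and the lower Bcl6 window holds 3 matches between 168 and 88 bases before it. A match describes letters in this window and no binding was measured.

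The largest rises were in genes that unstimulated cells hardly expressed. Serpinb5, which encodes the serpin maspin (chromosome 1, 106861175 to 106883348), had 0.141 and 0.145 CPM in the unstimulated libraries and 447 and 462 CPM with 21h10 at 1 nM. The rise was 11.62 ± 0.0968 (SE) on the log2 scale with an adjusted p of 6.47e-22, on mean RPKM values of 0.0471 and 141.4. With so few unstimulated reads this SE understates the counting error. Moxd1, a monooxygenase related to dopamine beta-hydroxylase (chromosome 10, 24223517 to 24302783), had 3 and 1 reads without cytokine and 1598 and 2151 with it, a ratio of 1602 (95% interval 625 to 5881, counting error only). Il13ra1, which encodes a chain of the IL-13 receptor (chromosome X, 36112108 to 36171262), went from 0.0540 and 0.0363 CPM to 42.9 and 53.1 CPM. In these 3 genes the treated libraries stood close together and far apart from the untreated ones. Enpp2, the gene of autotaxin, an enzyme that makes lysophosphatidic acid (chromosome 15, 54838901 to 54952789), went from 0.130 and 0.109 CPM to 93.9 and 110.3 CPM. Ggt1, which cleaves extracellular glutathione, went from 1.02 and 0.654 CPM to 249.4 and 223 CPM, and Serpinb1a, an inhibitor of neutrophil proteases, from 0.486 and 0.309 CPM to 111 and 107 CPM. Of the Enpp2 transcript, 5.97% overlaps Gm26684 on the other strand.

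Neuronal genes were among the other 6 of the 12 largest rises. Kif1a, a motor protein of synaptic vesicle transport, went from 0.0865 and 0.0727 CPM to 35.4 and 33.8 CPM, and Grin1, an NMDA receptor subunit, from 0.0324 and 0.0727 CPM to 14.2 and 12.4 CPM. Grin1 had much the same level in every cytokine group, with 14.95 and 14.4 CPM at 100 pM of mIL-21, 13.7 and 11.6 CPM at 100 pM of 21h10 and 14.2 and 15.4 CPM at 1 nM of mIL-21, and its difference from the last 2 groups did not pass (log2 fold changes 0.08 and -0.17, adjusted p = 0.56 and 0.203). In experiment 2 it did not pass the test (log2 fold change -0.42, adjusted p = 0.309), with 3.22 and 1.83 CPM in its unstimulated libraries and 1.85 and 1.93 CPM at 10 nM of 21h10. Grin1os overlaps 13.5% of the Grin1 transcript on the other strand. Slc8a2, a sodium-calcium exchanger, had 1 read in each unstimulated library and 5.79 and 5.67 CPM with 21h10 (ratio of CPM 422, 95% interval 116 to 3495). Rtn4rl2, a relative of the Nogo receptor, had 0 reads without cytokine and 88 and 92 with it, at least 103-fold higher against a floor of 3 reads over the group. The remaining genes were Crispld2, a secreted protein that binds lipopolysaccharide (0.0973 and 0.145 CPM against 32.4 and 33.2 CPM), and Cxcr1, a chemokine receptor best known from neutrophils (0.0649 and 0.0182 CPM against 12.3 and 11.7 CPM). No gene left out for its symbol (predicted genes, Rik clones, small RNAs or histones) rose by more than Cxcr1.

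**Figure D2:**
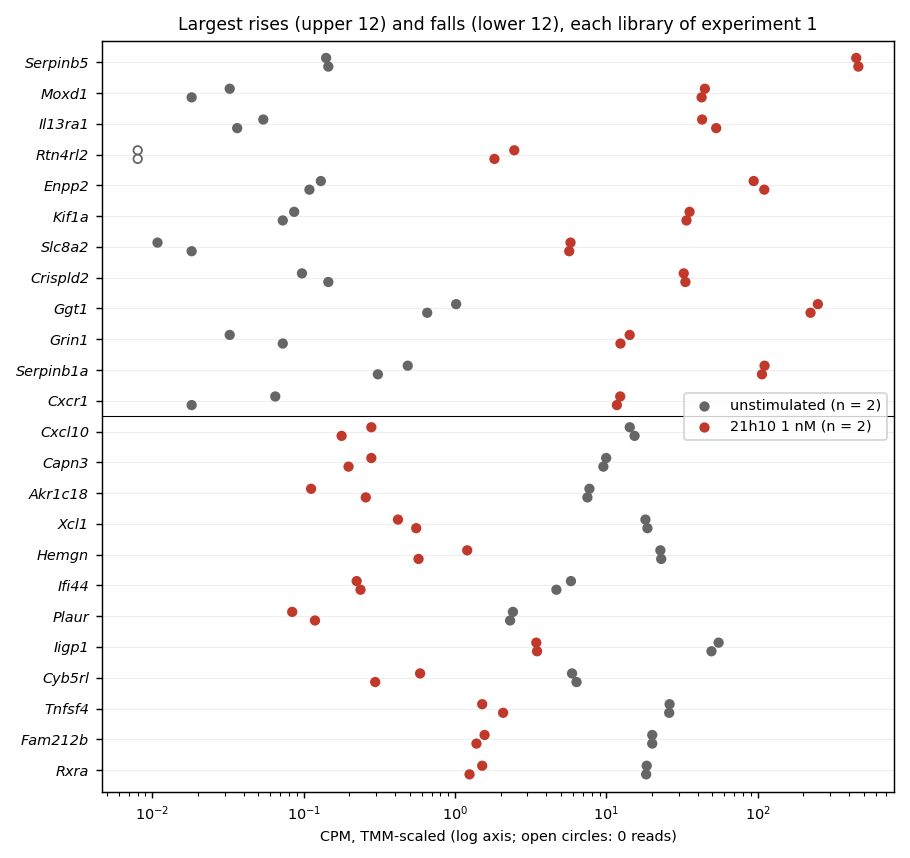
CPM (log axis) of the 12 genes with the largest rises and the 12 with the largest falls in each unstimulated library (grey) and each library with 21h10 at 1 nM (red) of experiment 1, with open circles for 0 reads. In every row the 2 grey points lie apart from the 2 red ones, which the rule for choosing these genes required. The unstimulated libraries of the rises lie at 1.02 CPM or below.

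The 12 largest falls included the chemokine genes Cxcl10 and Xcl1, the interferon-inducible genes Ifi44 and Iigp1 and the gene of a tumor necrosis factor ligand. Cxcl10, which attracts CXCR3-bearing T cells (chromosome 5, 92346638 to 92348889), had 14.3 and 15.3 CPM in unstimulated cells and 0.280 and 0.178 CPM with 21h10, which is -6.05 ± 0.195 (SE) on the log2 scale with an adjusted p of 6.96e-15. Xcl1, which attracts cross-presenting dendritic cells, had 18.1 and 18.6 CPM and 0.419 and 0.554 CPM, with 18.7% of its transcript shared with Gm20743 on the other strand. Capn3, a calcium-dependent protease, had 9.96 and 9.54 CPM and 0.280 and 0.198 CPM. In all 3 genes the treated libraries kept only a small remainder of the untreated level. Hemgn, a nuclear protein of blood progenitors, fell from 22.7 and 23.004 CPM to 1.20 and 0.573 CPM, and Akr1c18, an aldo-keto reductase that breaks down progesterone, from 7.72 and 7.49 CPM to 0.112 and 0.257 CPM. The interferon-inducible genes Ifi44 and Iigp1 went from 5.83 and 4.67 CPM to 0.224 and 0.237 CPM and from 55.1 and 49.4 CPM to 3.44 and 3.48 CPM. Tnfsf4, the ligand of OX40, fell from 26.1 and 25.97 CPM to 1.51 and 2.08 CPM, and Plaur, the urokinase receptor, from 2.41 and 2.31 CPM to 0.0839 and 0.119 CPM. The remaining falls were Cyb5rl (-3.86 on the log2 scale), Fam212b (-3.78) and Rxra (-3.76), the last of which encodes a retinoid receptor. For 11 symbols left out by form the fall was larger than that of Rxra.

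Transcripts of the killing granule were mostly higher with 21h10. Of 20 genes for granule proteins and death ligands, all tested, 12 were higher, 5 were lower and 3 did not pass, and 9 were at least 2-fold higher (18.7% of all genes were). Gzma, the tryptase granzyme A, had 39.995 and 41.1 CPM in unstimulated cells and 1614 and 1586 CPM with 21h10 at 1 nM, which is 5.30 ± 0.0585 (SE) on the log2 scale with an adjusted p of 3.56e-20. Prf1, perforin, had 18.6 and 18.4 CPM and 280.2 and 249.6 CPM, which is 3.84 ± 0.0690 (SE) on the log2 scale with an adjusted p of 4.26e-18. Gzmb, granzyme B, had 2832 and 2793 CPM in the activated cells without cytokine and 7457 and 7714 CPM with 21h10. For all 3 the duplicates lay close to each other and far from the other group. Gzmk rose from 1.11 and 1.25 CPM to 13.9 and 13.1 CPM, and Ctsw, a cathepsin of cytotoxic cells, from 73.1 and 70.4 CPM to 537 and 489 CPM. The granule membrane protein gene Nkg7 went from 134.6 and 135.8 CPM to 482 and 439 CPM and Rab27a, which docks granules at the synapse, from 99.6 and 95.1 CPM to 318 and 334 CPM. The gene for the granule matrix proteoglycan, Srgn, was higher by 0.60, the cystatin gene Cst7 by 1.47 and the priming factor gene Unc13d by 0.38 on the log2 scale.

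The remaining granzymes and granule genes did not move as one. Gzmd was higher by edgeR, though not by DESeq2 (3.74 and 4.32 CPM against 9.42 and 10.5 CPM). Gzme was higher (0.876 and 0.818 CPM against 1.76 and 1.502 CPM), while Gzmf was lower (3.89 and 4.36 CPM against 1.43 and 1.82 CPM). Gzmc had 20.8 and 19.1 CPM without and 9.42 and 56.1 CPM with 21h10, so that its treated duplicates lay on either side of the untreated ones, and it did not pass (adjusted p = 0.206), although its log2 fold change did without the first treated library (1.49) and with no filter on low counts (0.74). Gzmg stayed below 1 CPM in all 4 libraries and did not pass either (adjusted p = 0.663). Gzmm was lower (0.930 and 0.999 CPM against 0.224 and 0.297 CPM). Fasl, the death ligand, had 16.4 and 14.4 CPM and 17.4 and 17.3 CPM (adjusted p = 0.0545), and passed as higher with DESeq2 (log2 fold change 0.20), with the compared groups alone (0.22) and without the first unstimulated library (0.27). Serpinb9, which protects the killer cell from its own granzyme B, was lower, at 133.7 and 130.2 CPM against 91.1 and 91.6 CPM, and Ctsc, which activates granule proteases, and Lamp1, a granule membrane protein, had log2 fold changes of -0.65 and -0.22.

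Effector transcription factors were mostly higher as well. Of 13 listed, 11 were higher and 7 of these at least 2-fold, with a median log2 fold change of 1.35 (0.79 by limma). Prdm1, which encodes Blimp-1, a repressor that drives terminal effector fate, went from 11.9 and 12.1 CPM to 94.0 and 101 CPM, which is 3.03 ± 0.0579 (SE) on the log2 scale with an adjusted p of 8.47e-18. Nfil3 went from 44.1 and 44.3 CPM to 409 and 385 CPM, and Bhlhe40, which sustains cytokine output, from 131 and 129 CPM to 706 and 734 CPM. Id2, an inhibitor of E proteins, rose from 99.4 and 96.7 CPM to 409 and 380.0 CPM and Maf from 1.89 and 1.44 CPM to 5.82 and 6.54 CPM. Zeb2, Runx3, Batf, Ikzf2 and Batf3 were higher by 1.35, 1.37, 0.89, 0.66 and 0.26 as log2 fold changes. The T-box factors Tbx21 and Eomes differed in direction. Tbx21, which encodes T-bet, changed little, with 80.5 and 79.2 CPM against 92.8 and 87.2 CPM (log2 fold change 0.17, adjusted p = 0.0112, and no longer past the threshold with mapped reads or limma, at 0.09, or without the second unstimulated or the first treated library, at 0.16 and 0.13), whereas Eomes fell from 45.8 and 46.0 CPM to 20.97 and 20.7 CPM (log2 fold change -1.14, adjusted p = 2.78e-12). Irf4, which scales with receptor signal strength, had 293 and 286 CPM and 301 and 311 CPM and did not pass (adjusted p = 0.128), though it was called higher with DESeq2 (log2 fold change 0.12) and with the compared groups alone (0.14).

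The 15 resting and memory regulators did not share a direction, with 7 higher, 7 lower and a median log2 fold change of -0.05. Tcf7, which encodes TCF-1, a factor of naive and memory cells, had 294 and 298 CPM without cytokine and 297 and 275 CPM with 21h10, and did not pass (log2 fold change -0.05, adjusted p = 0.317), though it was called lower with mapped reads (-0.13) and without the first treated library (-0.10). Id3, an inhibitor of E proteins that marks memory precursors, fell from 4.95 and 5.996 CPM to 0.643 and 0.929 CPM, the largest fall of the list (-2.74). Bcl6 rose from 4.49 and 5.16 CPM to 34.4 and 37.6 CPM (log2 fold change 2.92, adjusted p = 1.2e-15). Blimp-1 and Bcl-6 are known to repress each other's gene. Foxo1 went from 84.1 and 83.0 CPM to 188 and 206.3 CPM, S1pr1, which lets cells leave lymphoid tissue, from 51.2 and 51.5 CPM to 116 and 125 CPM, and its regulator Klf2 from 3.64 and 3.72 CPM to 8.86 and 7.89 CPM. Il7r, the receptor for the survival factor IL-7, had 215 and 210.4 CPM and 349.8 and 364 CPM. Satb1 and Ccr7 were higher by 0.82 and 0.29. The other members were lower by small amounts, with log2 fold changes of -0.34 for Foxp1, -0.26 for Klf3, -0.16 for Myb, -0.14 for Cd27, -0.14 for Bach2 and -0.11 for Lef1. The calls of Id3 and Foxp1 held under every alternative run, and those of the other 5 were each lost under several. With DESeq2, or with the compared groups fitted alone, 2 members were lower, and without either unstimulated library 3 were, against 4 without the second treated library.

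Genes linked to STAT3 and to type 17 T cells had the highest median of the 26 lists. Since the lists were written with earlier results of these data known, the rank of this one is only a description. Of 10 members, 9 were higher, all of them at least 2-fold, and the median log2 fold change was 4.13 (1.82 over the 7 tested by limma, still the highest). Il10, a cytokine that restrains inflammation, went from 0.465 and 0.491 CPM to 78.7 and 76.4 CPM, which is 7.34 ± 0.127 (SE) on the log2 scale with an adjusted p of 2.58e-18. Il1r1, the IL-1 receptor, went from 0.757 and 0.818 CPM to 26.6 and 25.4 CPM and Il24, a cytokine of the IL-10 family, from 1.70 and 1.36 CPM to 30.7 and 34.1 CPM. Without cytokine these genes had at most 1.70 CPM in either library, far below either library with 21h10. Ahr, a receptor for environmental ligands, had 2.49 and 2.16 CPM and 23.2 and 23.9 CPM. The signature cytokines of type 17 cells rose to levels of a few CPM, Il17a from 0.184 and 0.200 CPM to 3.89 and 4.11 CPM, Il17f from 0.0432 and 0.0727 CPM to 1.398 and 1.27 CPM and Il22 from 0.0540 and 0.0727 CPM to 0.979 and 0.890 CPM. Rora and Il23r, the receptor of IL-23, had log2 fold changes of 2.57 and 2.71. The transcript of Il22 is near-identical to that of Iltifb over its whole length, so its reads cannot be placed with certainty. Ccr6, another type 17 marker, was lower, with 0.281 and 0.291 CPM against 0.140 and 0.0198 CPM (adjusted p = 0.0218), and this call was lost with DESeq2 (log2 fold change -1.90) and without the first unstimulated or the second treated library (-2.02 and -1.01).

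Cytokine genes moved in both directions. Of 16 listed, among them Il10 and Il24 of the list above, 13 were expressed enough to be tested, with 8 higher and 4 lower. Lif and Osm, both ligands of gp130 receptors, rose from 15.8 and 14.7 CPM to 99.2 and 92.9 CPM and from 11.4 and 11.5 CPM to 115 and 102 CPM. Ifng, the main effector cytokine of CD8+ T cells, had 5.599 and 5.45 CPM without and 10.04 and 10.2 CPM with 21h10 (log2 fold change 0.87, adjusted p = 3.35e-07), with 25.9% of its transcript shared with Gm49751 on the same strand. Tnf went the other way, from 14.3 and 13.7 CPM to 3.80 and 3.36 CPM, and so did Lta, lymphotoxin alpha, from 27.0 and 25.6 CPM to 9.17 and 7.77 CPM. Il2, Il3 and Areg had too few reads to be tested. Of 8 chemokines, 2 were higher and 5 lower. Ccl4, an inflammatory chemokine, rose from 1.59 and 1.76 CPM to 28.2 and 25.0 CPM and Ccl9 from 4.38 and 4.89 CPM to 27.0 and 27.1 CPM, whereas Ccl3, a close relative of Ccl4, did not pass (2.81 and 2.94 CPM against 3.19 and 2.57 CPM, adjusted p = 0.95). Ccl1 had 30 and 34 reads without cytokine and 0 in both libraries with 21h10, at least 12.5-fold lower against the floor of 3 reads over the group.

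**Figure D3:**
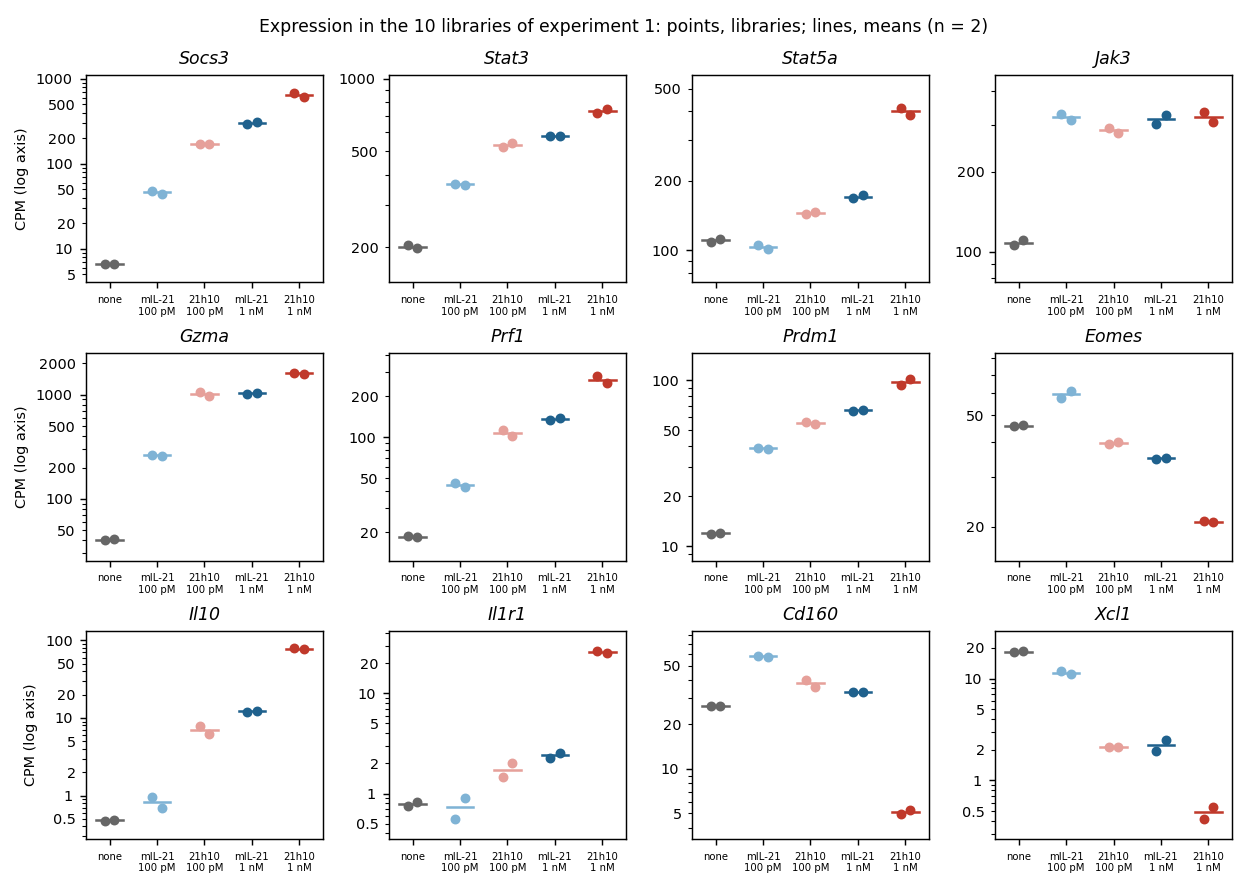
CPM (log axes) of 12 genes in the 10 libraries of experiment 1, in the order unstimulated, mIL-21 100 pM, 21h10 100 pM, mIL-21 1 nM and 21h10 1 nM. Points are libraries and lines are means (n = 2): Socs3, Gzma, Prf1, Prdm1, Il10 and Il1r1 were highest with 21h10 at 1 nM, and Eomes, Cd160 and Xcl1 were lowest there.

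Both inhibitory and costimulatory receptors were mostly higher. Of 13 inhibitory receptor and TOX genes, 9 were higher and 4 lower, and 7 were at least 2-fold higher. Lag3 went from 40.5 and 41.2 CPM to 613 and 573 CPM, and Entpd1, which encodes the ATP-degrading enzyme CD39, from 6.35 and 6.70 CPM to 138.9 and 144 CPM. Pdcd1, which encodes PD-1, fell from 27.997 and 27.2 CPM to 15.6 and 12.9 CPM, and Cd160, a receptor for HVEM, from 26.5 and 26.5 CPM to 4.95 and 5.28 CPM. Lag3 and Pdcd1, which are often listed together, moved in opposite directions. Of 11 costimulation and IL-2 receptor genes, 9 were higher, 5 of them at least 2-fold. Tnfrsf9, which encodes the costimulatory receptor 4-1BB, went from 120.1 and 117 CPM to 1354 and 1365 CPM, and Tnfrsf4, which encodes OX40, from 42.8 and 42.5 CPM to 282 and 264 CPM. Il2rb, a chain of the IL-2 receptor, and Cd28 were lower (-0.30 and -0.17 on the log2 scale), the latter not with DESeq2 (-0.13), the compared groups alone (-0.11) or either group's first library left out (-0.14 and -0.09). OX40 and its ligand Tnfsf4 therefore went opposite ways in the same libraries.

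Receptors and adhesion molecules for homing moved in both directions. Among 12 chemokine and sphingosine phosphate receptors, 7 were higher and 4 lower. Ccr2, the receptor of Ccl2, rose from 19.1 and 16.3 CPM to 161 and 157 CPM, and S1pr5 from 2 and 0 reads to 15 and 20 (ratio 29.9, 95% interval 7.68 to 257). Cxcr3, the receptor of Cxcl10, fell from 49.1 and 50.5 CPM to 9.34 and 7.99 CPM and Ccr8 from 5.98 and 7.03 CPM to 0.615 and 0.554 CPM. Among 10 integrin and adhesion genes, 7 were higher and 3 lower. Itgae, the gene of CD103, which binds E-cadherin on epithelium, fell from 22.7 and 23.5 CPM to 6.38 and 5.46 CPM and Itgb1 from 722 and 714 CPM to 297 and 312 CPM, while Selplg, the P-selectin ligand, rose from 255 and 259 CPM to 806 and 707 CPM and Itga2 from 0.994 and 1.27 CPM to 3.19 and 4.29 CPM. Of 13 NK-type receptor and adaptor genes, 12 were tested, 9 were higher and 1, the adhesion receptor gene Cd226, was lower (107 and 106 CPM against 44.7 and 48.9 CPM). Cd7 went from 1.59 and 1.399 CPM to 27.4 and 24.2 CPM. Klrc1, which encodes the receptor NKG2A, rose from 46.2 and 43.3 CPM to 111 and 126 CPM, with 79.8% of its transcript near-identical to Klrc2, so that reads of the pair cannot be fully told apart.

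Interferon-stimulated genes were mostly lower. Of 35, 24 were lower and 9 higher, the median log2 fold change was -1.39 (-0.86 by limma), and 18 were at least 2-fold lower (15.1% of all genes were). Besides Ifi44 and Iigp1, already described, these included the antiviral genes Oasl2 and Mx1, chosen here after their values were seen, with 4.51 and 4.07 CPM against 0.391 and 0.494 CPM for Oasl2 and 37.5 and 34.7 CPM against 4.08 and 4.35 CPM for Mx1. The members that were higher included Dhx58, a helicase of RNA sensing (21.7 and 21.99 CPM against 69.0 and 67.7 CPM), and Stat2 (58.2 and 57.2 CPM against 137.9 and 133 CPM). The listed guanylate-binding protein genes, a family picked out after its values were seen, were all higher, by log2 fold changes of 0.23 to 0.85. The list therefore did not move as one. Antigen presentation genes split evenly, with 6 of 12 higher and 6 lower, all within 2-fold. Tap1, a peptide transporter, and B2m, the light chain of MHC class I, were higher (0.84 and 0.65 on the log2 scale), and Psmb10, an immunoproteasome subunit, and Erap1, a peptide trimmer, were lower (-0.96 and -0.86).

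Genes of ribosome biogenesis and DNA replication were lower almost throughout. All 26 ribosome biogenesis genes, Myc among them, were lower, 23 of them at least 2-fold, with a median log2 fold change of -1.82. None was higher by edgeR, DESeq2 or limma, nor at an unadjusted p under 0.05 (0 of 26). Utp20, which processes the small subunit's RNA, fell from 181 and 187 CPM to 18.8 and 21.4 CPM and Ftsj3, an RNA methyltransferase, from 235 and 227 CPM to 33.1 and 32.8 CPM. For both genes the duplicates lay close together and far from the other group. Of 31 DNA replication genes, 29 were lower, 21 of them at least 2-fold, with a median of -1.17. Fen1, a flap endonuclease, fell from 183 and 181 CPM to 40.4 and 34.4 CPM (with 78.8% of its transcript shared with Gm10143 on the other strand) and Cdc6, which loads the replicative helicase, from 142.9 and 139.1 CPM to 35.3 and 32.5 CPM, while E2f2 alone was higher (0.35). Of 25 mitosis genes, 17 were lower and 2 higher, with a median of -0.53. Ccnb1, cyclin B1, fell from 298 and 292 CPM to 121 and 117 CPM and Kif20a from 244 and 248 CPM to 115 and 112 CPM, and Anln and Ccnb2 were higher by 0.30 and 0.19, the latter not with mapped reads (0.11) or limma (0.10). The counts of Cdc6 and Ccnb1 are uncertain, since Gm9430 is a near-identical copy of 59.5% of the Cdc6 transcript and Gm12856 of 51.9% of that of Ccnb1, and Cdc23 overlaps 29.3% of Kif20a on the other strand.

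Genes of glycolysis and of oxidative phosphorylation went opposite ways. Of 19 glycolysis genes, 18 were higher, 13 of them at least 2-fold, with a median log2 fold change of 1.22. The glucose transporter gene Slc2a3 went from 79.1 and 79.7 CPM to 1008 and 1062 CPM and Slc2a1 from 72.1 and 72.8 CPM to 509.7 and 481 CPM, and the monocarboxylate transporter gene Slc16a1 alone fell, from 245 and 238 CPM to 136.9 and 140.5 CPM. Of 31 genes of oxidative phosphorylation, 25 were lower, with a median of -0.39, and 0 were higher by edgeR, DESeq2 or limma or at an unadjusted p under 0.05, against 1 with the compared groups fitted alone. Cycs, cytochrome c, fell from 407 and 392.3 CPM to 155 and 158 CPM and Ndufa4 from 112 and 116 CPM to 45.3 and 46.7 CPM. Of 23 cholesterol synthesis genes, 20 were higher and 2 lower, with a median of 0.85, led by Pmvk (20.8 and 21.9 CPM against 71.8 and 66.5 CPM) and Mvd (18.4 and 19.1 CPM against 52.5 and 43.1 CPM) and with Idi1 lower (-0.75). Genes of ATF4 and amino acid supply were higher in 11 and lower in 4 of 18 cases, with the stress factor gene Ddit3 at 8.85 and 8.59 CPM and 85.8 and 100.4 CPM and Trib3 at 10.6 and 10.6 CPM and 65.2 and 61.0 CPM, whereas the serine synthesis genes Phgdh and Psat1 were lower (-1.13 and -0.47). Copies such as Gm9252 match 84.6% of the Phgdh transcript and Gm10053 matches 30.3% of that of Cycs, which leaves both counts uncertain. Chaperones of the endoplasmic reticulum and genes of the unfolded protein response were lower in 16 and higher in 3 of 20 cases, with a median of -0.47, and Xbp1, which encodes a factor of that response, was among the 3 (94.1 and 94.2 CPM against 177 and 166 CPM).

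Survival, T cell receptor and early response genes moved in both directions. Of 14 BCL2 family and death receptor genes, 7 were higher and 5 lower, and both the survival gene Bcl2 and the death gene Bcl2l11, which encodes BIM, rose, from 119 and 113 CPM to 347 and 412 CPM and from 29.6 and 30.5 CPM to 99.2 and 100.1 CPM. Bid and Bax, on the side of cell death, fell (-1.46 and -0.95), with 12.2% of the Bax transcript shared with Gm45808 on the same strand. Of 14 genes of the T cell receptor complex and its proximal kinases, 9 were higher and 3 lower, all but 2 of them within 2-fold. Ptprc, which encodes CD45, rose from 1025 and 991 CPM to 2256 and 2525 CPM and Cd247, the zeta chain, from 41.5 and 43.3 CPM to 104 and 107 CPM (56.4% of this transcript overlaps Pou2f1 on the other strand), while Cd8b1 and Lcp2 were lower (-0.46 and -0.36). Of 15 AP-1, EGR and NR4A genes, 7 were higher and 5 lower, with Fosl2 at 16.5 and 16.0 CPM and 169 and 162 CPM and Jun at 17.1 and 16.7 CPM and 74.4 and 72.7 CPM on the one side and Egr2 (-1.56) and Nr4a3 (-1.53) on the other.

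The dose step was tested directly, with 21h10 at 1 nM against 21h10 at 100 pM. Of all genes, 2813 (20.1%) were higher and 2663 (19.1%) lower at the higher dose. The type 17 and STAT3-linked list, chosen with earlier results known, had 9 of 10 members higher and a median log2 fold change of 3.13. The tenth, Ccr6, had a log2 fold change of -0.11 (adjusted p = 0.941). Il10 had 7.82 and 6.25 CPM at 100 pM and 78.7 and 76.4 CPM at 1 nM (log2 fold change 3.48, adjusted p = 1.4e-14), and Il1r1 1.46 and 2.01 CPM and 26.6 and 25.4 CPM. Socs3 went from 172 and 169 CPM to 686 and 606 CPM and Stat5a from 143.3 and 146 CPM to 414 and 386 CPM. Cd160 and Eomes fell between the doses, from 39.9 and 36.04 CPM to 4.95 and 5.28 CPM and from 39.4 and 40.1 CPM to 20.97 and 20.7 CPM. Cd160 at 100 pM of 21h10 lay above the unstimulated libraries. Lists with changes against unstimulated cells were also counted between the doses. Of the 26 ribosome biogenesis genes, 8 were higher and 1 lower at 1 nM than at 100 pM, with a median of 0.08 (5 and 1 with mapped reads or limma). Of the 31 replication genes 8 were higher and 3 lower, with a median of 0.07, but 4 and 6 with mapped reads and 2 and 4 with limma. Chaperones of the endoplasmic reticulum were higher in 12 and lower in 1 of 20 cases (median 0.29), and amino acid supply genes in 15 and 1 of 18 (median 0.50). Of the 19 glycolysis genes 6 were higher and 2 lower, with a median of 0.07 (4 and 3 with mapped reads or limma). Of the 23 cholesterol synthesis genes 1 was higher and 5 were lower, with a median of -0.06. Of the 31 oxidative phosphorylation genes 4 were higher and 0 lower, with a median of 0.02 (-0.04 with mapped reads or limma).

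Against mIL-21 at the same dose of 1 nM, 2735 genes (19.6%) were higher and 2536 (18.1%) lower with 21h10. The type 17 and STAT3-linked list again had 9 of 10 members higher, with a median of 2.50, and Il10 was at 11.97 and 12.3 CPM with mIL-21 and 78.7 and 76.4 CPM with 21h10 (log2 fold change 2.67, adjusted p = 3.66e-13). Socs3 had 296 and 312 CPM and 686 and 606 CPM, Prf1 133.8 and 137.1 CPM and 280.2 and 249.6 CPM, and Prdm1 65.8 and 66.2 CPM and 94.0 and 101 CPM, all higher with 21h10. The levels with mIL-21 at 1 nM lay between those of unstimulated cells and of 21h10 at 1 nM in each of these genes. Cd160 was lower with 21h10 than with mIL-21 (33.2 and 33.1 CPM against 4.95 and 5.28 CPM), as was Xcl1 (1.94 and 2.49 CPM against 0.419 and 0.554 CPM). Gzmk was lower with 21h10, with 16.8 and 15.8 CPM with mIL-21 and 13.9 and 13.1 CPM with 21h10 (log2 fold change -0.27, adjusted p = 0.0115). For Runx3 the same test gave -0.08 ± 0.0478 (SE) on the log2 scale with an adjusted p of 0.207, so that a difference was not detected. Both direct comparisons share the libraries with 21h10 at 1 nM. The balance of higher and lower calls in them depended on the scaling. Higher genes made up 51.4% of the calls against 100 pM and 51.9% of those against mIL-21, 38.0% and 41.1% with library sizes from mapped reads, and 36.9% and 40.4% with limma on RPKM.

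Experiment 2 gave a look at the same genes in other libraries, at 10 nM of 21h10, so that dose and experiment changed together and no difference was tested between the 2. Of 13772 genes tested there, 3469 (25.2%) were higher and 3434 (24.9%) lower than in its own unstimulated cells. These values played no part in the choice of the genes with the largest changes. Of the 12 largest rises of experiment 1, 11 could be tested and 10 were higher, and of the 12 largest falls 11 could be tested and 9 were lower. Serpinb5 had 0.553 and 0.873 CPM and 224 and 211 CPM (log2 fold change 8.26, adjusted p = 1.18e-15), Moxd1 0.144 and 0.0546 CPM and 66.3 and 61.8 CPM, and Ggt1 2.14 and 2.62 CPM and 282 and 258 CPM. Among the falls, Capn3 had 25.0 and 22.6 CPM and 0.0713 and 0.677 CPM, and Hemgn 40.8 and 46.4 CPM and 0.962 and 1.16 CPM. Besides Grin1, the exceptions were Tnfsf4 (-0.35, adjusted p = 0.158) and Fam212b (-0.20, adjusted p = 0.482). Across the 13248 genes tested in both experiments, the log2 fold changes correlated with Pearson's r of 0.44 and Spearman's rho of 0.33, which describes genes within these libraries and not replicates.

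The gene lists did not all move alike in the 2 experiments. Socs3 rose in both, with 11.9 and 11.8 CPM and 315 and 313 CPM in experiment 2, as did Gzma (46.6 and 50.2 CPM and 3592 and 3359.6 CPM), Prf1 (18.1 and 16.6 CPM and 293 and 278 CPM) and Il10 (0.192 and 0.0818 CPM and 55.5 and 50.5 CPM). Of the 10 type 17 and STAT3-linked genes, 7 were tested in experiment 2, with 4 higher and 0 lower (median log2 fold change 2.19). Il17a, Il17f and Il22 had too few reads to be tested there, and Rora had a log2 fold change of 0.10. DNA replication genes were lower in both, in 24 of 31 cases in experiment 2 (median log2 fold change -0.79), and interferon-stimulated genes in 21 of 35 (median -0.51). Glycolysis genes were higher in 18 of 19 cases in experiment 1 and in 0 of 19 in experiment 2 by edgeR, DESeq2 or limma or at an unadjusted p under 0.05, while 15 were lower there by edgeR (median -0.68). The median of the costimulation and IL-2 receptor list was 0.91 in experiment 1 and 0.00 in experiment 2. Of its 11 genes 5 were higher and 2 lower there, and Tnfrsf9 had a log2 fold change of -0.08. For ATF4 and amino acid supply the medians were 0.94 and -0.03, with 7 of 18 higher and 6 lower in experiment 2. Ribosome biogenesis genes were lower in 26 of 26 and in 9 of 26 cases, and chaperones of the endoplasmic reticulum were lower in 16 of 20 and in 1 of 20, with 8 higher in experiment 2. Duplicates varied more in experiment 2, with a biological coefficient of variation of 8.80% against 4.32% in experiment 1. Counts of calls in the 2 experiments therefore rest on unlike spreads. In experiment 2 the ribosome count depended on the scaling, with 16 lower by mapped reads (median -0.34) and 15 by limma (-0.32), and so did that of the chaperones, with 5 lower and 4 higher by either. The balance over all genes moved as well, since higher genes made up 50.3% of the calls with TMM, 25.3% with library sizes from mapped reads and 22.9% with limma on RPKM, and the median of the chaperone list was 0.18 with TMM and -0.09 with mapped reads. Eomes was lower in experiment 1 and higher in experiment 2, at 52.7 and 60.4 CPM and 73.2 and 78.2 CPM, a rise lost with mapped reads (0.15) and limma (0.14), and Tcf7, which did not pass in experiment 1, was higher there, at 693 and 685 CPM and 1089 and 1094 CPM.

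**Figure D4:**
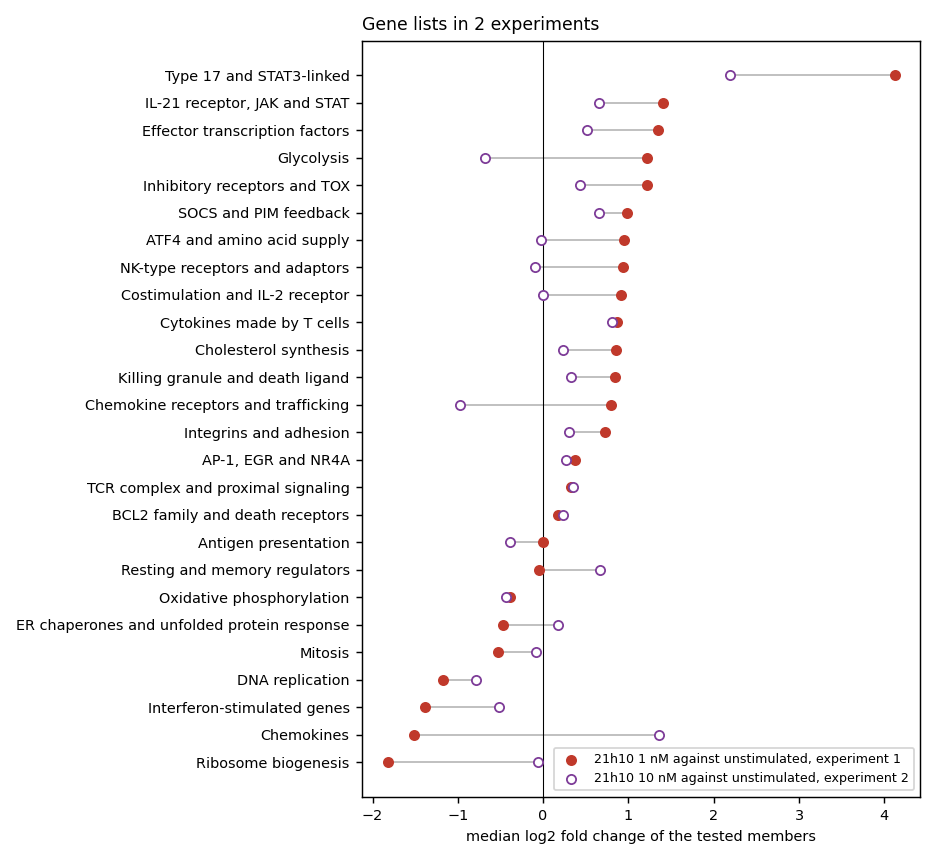
Median log2 fold change of the tested members of each of 26 gene lists (rows), for 21h10 1 nM against unstimulated cells in experiment 1 (filled red) and for 21h10 10 nM against unstimulated cells in experiment 2 (open purple), joined by grey lines. The glycolysis medians lie on either side of 0 (1.22 and -0.68), and that of ribosome biogenesis is -1.82 in experiment 1 and -0.07 in experiment 2 (-0.34 there with mapped reads and -0.32 with limma). The tested members of a list can differ between the experiments, with 10 and 7 for the type 17 and STAT3-linked list.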

How the data were processed

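RNA-seq was read in 10 libraries of each of 2 experiments, 5 groups of 2 per experiment. Per the labels and the study's methods, the authors aligned reads to the mouse genome (mm10, GRCm38) with TopHat2 2.0.11 and Bowtie2 2.2.6, used SAMtools 0.1.8 and bedtools 2.25.0, counted reads on exons and tested with edgeR. For each library the authors deposited a table of 31682 transcripts with raw read counts and with RPKM, reads per kilobase of transcript scaled to mapped reads. Whether counting used strand is not given in the sources used here.

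Of each of 23992 gene symbols the longest transcript was kept. Counts were tested in R 4.3.3 with edgeR 4.0.16 (filterByExpr with a least count of 10 and a least total of 15, TMM, quasi-likelihood test, Benjamini-Hochberg over all genes tested, threshold 0.05), with the 10 libraries of an experiment in one fit and no replicate block. The steps were run on simulated counts in which few genes changed, and those by at most 2-fold. That setting does not cover a contrast in which most genes change, so it does not test the steps there. Alternatives were DESeq2 1.42.0, limma 3.58.1 on log2(RPKM + 1) (RPKM of 1 or more in 2 or more libraries), no filter, the most-read transcript, library sizes from mapped reads, the compared groups alone, each compared library left out, and the duplicate number as a block. Duplicates differed by more than sampling noise in every group.

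Genes named were the 12 largest rises and falls among genes past the threshold without overlap and with a mean RPKM of 1 or more in the group where they were higher (predicted genes, Rik clones, small RNAs and histone genes only counted), the 2 largest rises and falls of each list, and all members of the receptor, feedback, granule and both transcription factor lists. The other type 17 genes, Ifng, Lif, Osm, Ccl3, Oasl2 and Mx1 were chosen after their values were seen. Some listed genes are not reported here and were left out of the list counts. The members and lists were chosen with earlier results of these data known. Intervals and floors of counts cover counting error only. SE values were derived from the log2 fold change and the F statistic of the quasi-likelihood test and were not fitted. They can lie below the counting error where a group has few reads, as for Serpinb5, Cxcl10 and Il10. Overlapping genes were read from GENCODE vM21 (GRCm38), and near-identical copies are stretches of at least 100 bases at 95% identity. Of 12 rises and 12 falls, 10 and 9 matched a promoter in the RefSeq table.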

Additional observations from a re-analysis of the deposited data

Results flagged for a closer look

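Of the 181 genes named here, 169 were tested in both experiments, and 17 passed the test one way with 21h10 at 1 nM in experiment 1 and the other way with 21h10 at 10 nM in experiment 2, with the libraries of the compared groups apart in both. The difference itself was not tested, and dose and experiment changed together. Chosen for this pattern, the values below are a description, as log2 fold changes in experiment 1 and then in experiment 2.

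Lower in experiment 1 and higher in experiment 2 were the feedback gene Socs2 (-1.07 and 1.45), the granule genes Serpinb9 (-0.53 and 0.99), Ctsc (-0.65 and 0.35) and Lamp1 (-0.22 and 0.23), the transcription factor genes Eomes (-1.14 and 0.42), Klf3 (-0.26 and 0.93) and Lef1 (-0.11 and 0.33), the PD-1 gene Pdcd1 (-0.96 and 0.43), the adaptor gene Lcp2 (-0.36 and 0.58) and the cytochrome gene Cycs (-1.35 and 0.65). With library sizes from mapped reads, which moved the median of all genes in experiment 2 to -0.28, Lamp1 turned to -0.04 there and the rises of Lef1 (0.06), Ctsc (0.08), Eomes (0.15) and Pdcd1 (0.16) no longer passed, nor did they with limma, and the falls of Klf3 and Lef1 in experiment 1 were lost with DESeq2. In experiment 1 the call of Klf3 was also lost without the second library of either group (-0.20 and -0.22), and that of Lef1 without any one of the 4 libraries (-0.13 to -0.09). In experiment 2 the call of Lamp1 was lost without the first unstimulated (0.19) or either treated library (0.19 and 0.26), that of Lef1 without the second treated library (0.29), that of Pdcd1 without the second unstimulated (0.25) or the first treated library (0.31), and that of Slc2a1, given next, without the second treated library (-0.46).

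Higher in experiment 1 and lower in experiment 2 were the OX40 gene Tnfrsf4 (2.68 and -0.91), the glucose transporter gene Slc2a1 (2.77 and -0.53), the stress gene Trib3 (2.57 and -1.71), the RNA helicase gene Dhx58 (1.65 and -0.96), the peptide transporter gene Tap1 (0.84 and -0.90), the transcription factor gene Ikzf2 (0.66 and -1.29) and the homing receptor gene Ccr7 (0.29 and -0.61).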

How the results depend on the processing

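For 21h10 at 1 nM against unstimulated cells the counts of genes stayed within 1.5 times under every alternative except a log2 fold change of at least 1, which left 2608 higher and 2110 lower. With limma on RPKM 1613 genes were higher than at 100 pM, 1678 higher than with mIL-21 and 1501 higher in experiment 2, and with library sizes from mapped reads 1967 were higher and 5793 lower in experiment 2. Without one library each (a group left with 1 library is assumed to vary like the others), 5012 to 5186 genes were higher and 5458 to 5710 lower than in unstimulated cells, 2118 to 3036 and 1955 to 2715 than at 100 pM, 2204 to 3070 and 1796 to 2641 than with mIL-21, and 2597 to 3469 and 2367 to 3479 in experiment 2. With the duplicate number as a replicate block 5296 genes were higher and 5817 lower than in unstimulated cells. In experiment 1, deviations of same-numbered duplicates correlated between -0.06 and 0.03 over all tested genes. This cannot exclude a shared mouse or day, since it rests on 1 library per group with its counting noise. Experiment 2 was not checked in this way. Reversed in experiment 2 were Stat5b (-0.0038 with mapped reads), Lamp1 (-0.043 with mapped reads and with limma) and Erap1 (-0.24 with mapped reads, -0.23 with limma), where the cause was not tested. Changes near 0 depended on the scaling.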
